A study of Rattus norvegicus with 9 samples.

Results

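Immediate early genes were described in the prostates of 9 male rats, 3 arrays in each of 3 groups. The set held 10 genes, Fos, Fosb, Fosl2, Jun, Junb, Egr1, Egr2, Atf3, Nr4a1 and Ier2, and its members were taken by name, through the transcript accession that each array probe carried. A named probe was found for 9 of the 10 genes, by 10 probes among 30356 probes and 15163 gene symbols in all, and none was found for Fosb. Of the 9 genes, 8 were bright enough to be tested, and Egr1 was not. The rats were Sprague Dawley males, 6 weeks old at the start, with no genetic change stated. Sham rats had a mock castration and were given corn oil and water. BPH rats were castrated and injected daily with dihydrotestosterone at 3 mg/kg for 4 weeks to enlarge the gland, and they received water by mouth. BPH+ghrelin rats had the same castration and androgen, and during the last 2 weeks were gavaged with rat ghrelin, a stomach peptide hormone, at 20 nmol/kg. A figure legend of the study gives another dose and route for ghrelin. Both BPH groups therefore lacked testes and carried injected androgen, which the sham rats did not. All rats were killed by cervical dislocation after carbon dioxide, and the glands were frozen. The time between death and freezing is not given in the sources used here.

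Immediate early genes are switched on by signals that act on transcription factors already present in the cell, so that their transcripts appear within minutes without new protein synthesis and decay as fast. Fos, Fosb and Fosl2 pair with Jun and Junb to form the AP-1 transcription factor, Egr1 and Egr2 are zinc finger factors, Atf3 is a stress-induced factor of the ATF/CREB family, Nr4a1 is an orphan nuclear receptor, and Ier2 is a small nuclear protein of the early response. In many tissues they respond to growth factors, hormones and nerve activity, and also to mechanical handling and loss of blood flow during dissection.

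Among DNA elements, 2 are known to carry this response, the cyclic AMP response element (CRE), which binds CREB and ATF factors, and the CArG box, which binds serum response factor. Promoter windows from 250 bases before to 50 bases after the start of transcription were taken from RefSeq for the rat build GRCr8, and 7 of the 10 members had one, the exceptions being Fos, Jun and Atf3. They were searched on both strands for the full CRE (TGACGTCA), its short core (TGACG, which lies in the full CRE on each strand), the AP-1 site (TGANTCA) and the CArG box. The windows of Ier2, Egr2, Junb and Nr4a1 are printed below because these 4 genes were bright enough to be tested and hold such elements. The 4 windows lie at chr19:40399123-40399422 on the plus strand for Ier2, chr20:21054392-21054691 on the minus strand for Egr2, chr19:40080876-40081175 on the plus strand for Junb and chr7:134259888-134260187 on the plus strand for Nr4a1. Each is written 5′ to 3′ along the gene, and capitals mark the CRE, its core and the CArG box.
Ier2: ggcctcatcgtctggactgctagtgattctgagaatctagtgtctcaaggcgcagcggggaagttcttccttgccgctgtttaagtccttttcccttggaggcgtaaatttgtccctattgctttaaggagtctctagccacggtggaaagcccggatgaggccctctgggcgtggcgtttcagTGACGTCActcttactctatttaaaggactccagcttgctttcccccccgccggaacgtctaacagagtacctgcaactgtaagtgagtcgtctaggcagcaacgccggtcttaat
Egr2: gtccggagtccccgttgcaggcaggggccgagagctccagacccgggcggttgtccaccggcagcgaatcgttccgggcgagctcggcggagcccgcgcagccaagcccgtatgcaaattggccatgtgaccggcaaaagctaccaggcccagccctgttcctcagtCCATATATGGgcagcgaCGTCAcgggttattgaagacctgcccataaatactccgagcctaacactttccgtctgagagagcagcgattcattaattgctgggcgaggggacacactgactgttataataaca
Junb: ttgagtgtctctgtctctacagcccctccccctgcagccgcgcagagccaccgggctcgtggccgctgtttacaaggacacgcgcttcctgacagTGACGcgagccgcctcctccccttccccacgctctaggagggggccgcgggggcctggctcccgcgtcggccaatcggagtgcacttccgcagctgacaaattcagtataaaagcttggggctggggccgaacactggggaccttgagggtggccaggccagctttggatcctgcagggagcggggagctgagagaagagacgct
Nr4a1: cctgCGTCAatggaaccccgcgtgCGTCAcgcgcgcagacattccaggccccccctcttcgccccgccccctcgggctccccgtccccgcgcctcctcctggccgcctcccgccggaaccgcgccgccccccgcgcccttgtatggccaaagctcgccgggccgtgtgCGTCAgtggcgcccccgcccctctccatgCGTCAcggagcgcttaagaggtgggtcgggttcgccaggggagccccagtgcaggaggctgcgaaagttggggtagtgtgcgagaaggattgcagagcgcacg

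Ier2 held the only full CRE among the 7 members searched, starting at position -66 from the start site, where 1.83% of 33469 rat promoter windows held one. The core was present in 5 of the 7 members against 21.2% of all windows, and Nr4a1 held 4 of them, at positions -246, -226, -82 and -53. A CArG box was present in Egr1 and Egr2 against 1.64% of all windows. Both genes had one at position -83 and a CRE core at position -66, and Egr1 had another CArG box at position -105. No AP-1 letters were found in the 7 windows, where 7.33% of all windows held them. These matches describe letters in the windows and not binding.

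The 9 arrays came from 3 slides, as inferred from scans shared in the file headers. Slide 1 carried the 3 BPH arrays beside replicate 1 of BPH+ghrelin. Slide 2 carried the other 2 BPH+ghrelin arrays beside sham replicates 1 and 2, and slide 3 only sham replicate 3. No slide held both BPH and sham, so for that comparison slide and group cannot be told apart within a slide. BPH+ghrelin and BPH met on slide 1 only, by 1 BPH+ghrelin array, so ghrelin and slide are largely mixed as well. Sham replicate 2 stood apart as the dimmest array, with a median signal of 40.9 against 73.3 to 133 in the other 8, and 61.4% of its probes were well above background against 69.5% to 75.05% in the others. The differences it decides, the spread in sham and the likeness between members are also given without it. Pbsn, Krt8, Krt18 and Hoxb13, markers of prostate luminal epithelium, were well above background on all 9 arrays.

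Fos, the DNA-binding partner of Jun in AP-1, had the widest range of the members. Its quantile-normalized log2 signals in sham replicates 1, 2 and 3 were 10.97, 7.95 and 10.37. The BPH arrays read 7.31, 7.23 and 7.42, and the BPH+ghrelin arrays 7.35, 7.62 and 7.87. Fos was thus high on 2 of the 3 sham arrays, and the third sham array lay just above the 6 arrays of castrated rats, so that sham overlapped with neither group. Group means were 9.76 ± 1.60 (SD, n = 3) in sham, 7.32 ± 0.10 in BPH and 7.61 ± 0.26 in BPH+ghrelin. The log2 difference of BPH from sham was -2.45 (SE 0.66, 95% interval -3.96 to -0.93), a level 5.45-fold lower, with a limma adjusted p of 0.0742 that missed the threshold of 0.05. BPH+ghrelin differed from sham by -2.15 (SE 0.66), or 4.43-fold lower, with adjusted p = 0.0951. Without sham replicate 2 these differences were -3.34 with adjusted p = 0.00127 and -3.04 with adjusted p = 0.000797. Without sham replicate 1 they were -1.85 (adjusted p = 0.0732) and -1.55 (adjusted p = 0.139), and with slide as a block -1.75 (adjusted p = 0.929) and -1.71 (adjusted p = 0.471). Slide as a block takes sham replicate 3, alone on its slide, out of both differences. It links BPH to sham only through the BPH+ghrelin arrays. Between BPH+ghrelin and BPH the difference was 0.30 (95% interval -1.22 to 1.82, adjusted p = 0.826), an interval wide enough to hold a change of more than 2-fold either way. Before normalization the Fos signal of sham replicate 2 was 117, below the 152 to 246 of the 6 arrays of castrated rats, and its place just above them arose on scaling this dim array.

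**Figure D1:**
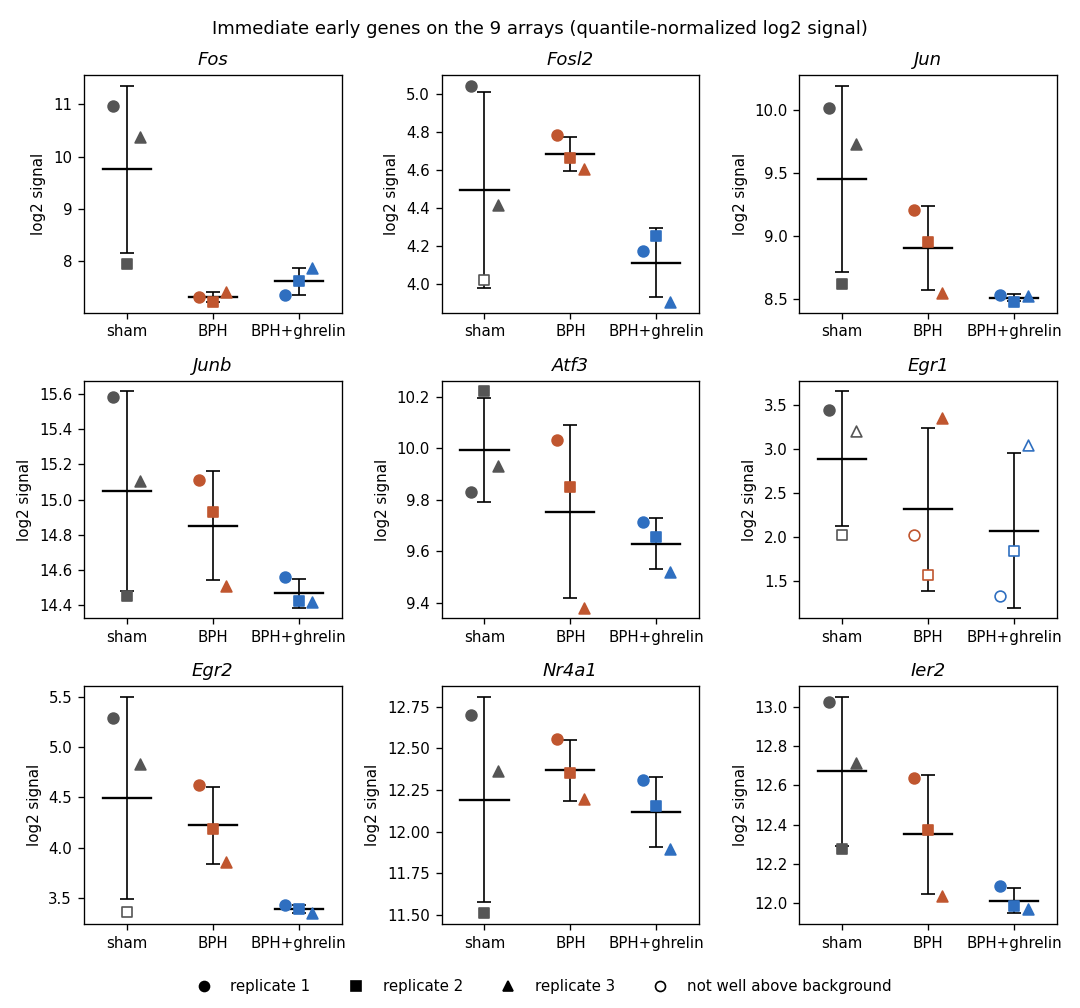
Quantile-normalized log2 signal (vertical axis, scale set for each gene) of the 9 measured immediate early genes on the 3 arrays of each group, with the mean and SD as bars and open symbols where the probe was not well above background. Sham replicate 2 (square) lay below sham replicates 1 and 3 in 8 of the 9 panels, Atf3 being the exception, and Egr1 was well above background on 2 of 9 arrays.

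Jun, the other core subunit of AP-1, read 10.02, 8.62 and 9.74 in sham, 9.21, 8.96 and 8.55 in BPH and 8.54, 8.48 and 8.52 in BPH+ghrelin. The BPH+ghrelin arrays lay below all 6 others, though their highest, 8.54, was next to BPH replicate 3 at 8.55, and BPH overlapped with sham. The difference from sham was -0.55 in BPH (SE 0.34, adjusted p = 0.326) and -0.95 in BPH+ghrelin (SE 0.34, adjusted p = 0.138), and BPH+ghrelin differed from BPH by -0.39 (SE 0.34, adjusted p = 0.534). With sham replicate 2 left out the first difference was -0.96 (adjusted p = 0.0432) and the second -1.36 (adjusted p = 0.0105).

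Junb, a Jun family member that often restrains Jun, read 15.58, 14.45 and 15.11 in sham. It read 15.11, 14.93 and 14.51 in BPH and 14.56, 14.43 and 14.42 in BPH+ghrelin. All 3 groups overlapped, with sham replicate 2 level with the BPH+ghrelin arrays. The differences were -0.20 for BPH and -0.58 for BPH+ghrelin from sham, and -0.38 for BPH+ghrelin from BPH, with SE 0.28 and adjusted p of 0.672, 0.251 and 0.457. The difference of BPH+ghrelin from sham without sham replicate 2 was -0.86 (adjusted p = 0.0450).

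Fosl2, a Fos family member that persists longer than Fos, was read by a pair of dim probes. The brighter one gave 5.05, 4.02 and 4.42 in sham, where replicate 2 was not well above background, 4.78, 4.67 and 4.61 in BPH and 4.18, 4.26 and 3.91 in BPH+ghrelin. By this probe BPH+ghrelin lay below BPH on every array, with a difference of -0.57 (SE 0.24, adjusted p = 0.228). BPH differed from sham by 0.19 (SE 0.24, adjusted p = 0.636) and BPH+ghrelin from sham by -0.38 (adjusted p = 0.385). The other probe read 4.51, 4.81 and 4.18 in sham, 4.30, 4.40 and 3.88 in BPH and 3.96, 3.76 and 4.31 in BPH+ghrelin. It disagreed with the first in sign for BPH against sham, at -0.30, and gave a smaller difference of -0.19 between BPH+ghrelin and BPH. The mean of both probes gave -0.38 there, and normexp background correction of the brighter one -0.14, and -0.01 against sham.

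Egr2, a zinc finger factor known from nerve myelination and growth factor responses, was dim but was read by 10 replicate spots per array. Sham replicates read 5.28, 3.36 and 4.83, with replicate 2 not well above background, BPH 4.62, 4.19 and 3.86, and BPH+ghrelin 3.43, 3.39 and 3.35. The 3 BPH+ghrelin arrays lay below all BPH arrays and level with the dim sham array. The differences were -0.27 for BPH from sham (SE 0.44, adjusted p = 0.715), -0.83 for BPH+ghrelin from BPH (SE 0.44, adjusted p = 0.316) and -1.10 for BPH+ghrelin from sham (SE 0.44, adjusted p = 0.177), the last a level 2.15-fold lower. Without sham replicate 2 the last difference was -1.68 (adjusted p = 0.00933). With normexp background correction, which adds an offset of 50 to every signal and so draws dim values together, the last 2 differences were -0.14 (adjusted p = 0.511) and -0.25 (adjusted p = 0.220). Egr1, its close relative with the same DNA target, was well above background only on sham replicate 1 and BPH replicate 3. Its log2 signals were 3.44, 2.02 and 3.20 in sham, 2.02, 1.57 and 3.35 in BPH and 1.34, 1.85 and 3.04 in BPH+ghrelin, and at this signal no difference could be shown.

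Ier2 read 13.03, 12.27 and 12.71 in sham, 12.64, 12.37 and 12.04 in BPH and 12.09, 11.98 and 11.97 in BPH+ghrelin. BPH+ghrelin lay below every sham array, while BPH overlapped with both other groups. Against sham the difference was -0.32 in BPH (SE 0.22, adjusted p = 0.370) and -0.66 in BPH+ghrelin (SE 0.22, adjusted p = 0.115), and BPH+ghrelin differed from BPH by -0.34 (adjusted p = 0.405), or -0.07 with 75th percentile scaling. On leaving out sham replicate 2 the difference of BPH+ghrelin from sham was -0.85 (adjusted p = 0.0360).

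Nr4a1, an orphan nuclear receptor induced by peptide hormones and stress, read 12.70, 11.51 and 12.36 in sham, 12.56, 12.35 and 12.20 in BPH and 12.31, 12.15 and 11.90 in BPH+ghrelin. All 3 groups overlapped. Its differences were 0.18 for BPH and -0.07 for BPH+ghrelin from sham and -0.25 for BPH+ghrelin from BPH, with SE 0.29 and adjusted p between 0.647 and 0.909, and the first turned to -0.16 without sham replicate 2. Nr4a1 held 4 CRE cores in the window printed above and Ier2 the full CRE, and their differences are given here side by side with no claim about those letters.

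Atf3 broke the order of the sham arrays, reading 9.83, 10.22 and 9.93, with replicate 2 the highest. Before normalization its sham signals were 950, 586 and 820, with replicate 2 the lowest, so that this order arose on scaling the dim array. Normalized Atf3 read 10.03, 9.85 and 9.38 in BPH and 9.72, 9.66 and 9.52 in BPH+ghrelin. The BPH+ghrelin arrays lay below every sham array, with a difference of -0.36 (SE 0.19, adjusted p = 0.287), and the differences of BPH from sham and of BPH+ghrelin from BPH were -0.24 and -0.12 (adjusted p = 0.435 and 0.738).

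**Figure D2:**
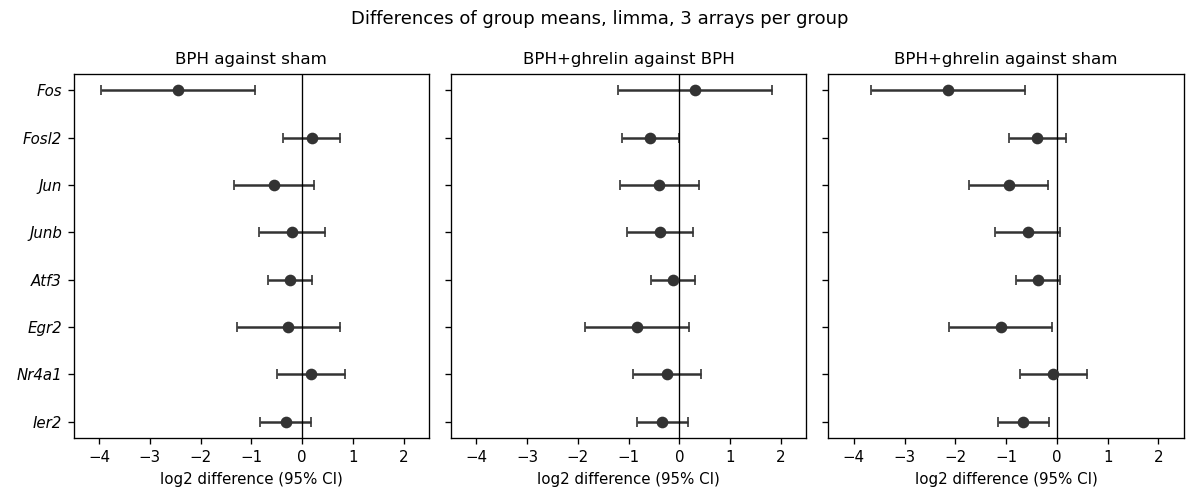
Log2 difference of group means with its 95% confidence interval from limma (horizontal axis) for the 8 tested immediate early genes in the 3 comparisons. Fos has the difference farthest from 0 against sham, -2.45 in BPH and -2.15 in BPH+ghrelin, and no gene passed an adjusted p of 0.05.

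In BPH against sham, 0 of the 8 members tested passed an adjusted p under 0.05 in limma, where 4.34% of 19552 genes did. In all such counts a probe whose accession matched no gene symbol stood as a gene of its own, and 11523 of the 19552 had a symbol. At an unadjusted p under 0.05 the count was 1, Fos, against 26.5% of all genes, and the same gene was the 1 at least 2-fold lower (4.63% of all genes) and the 1 whose arrays did not overlap (31.3% of all genes). The level was lower in BPH for 6 of the 8 genes, where 46.3% of all genes were lower, and the median difference was -0.26 against 0.04 over all genes. This median ran from -0.50 without sham replicate 2 to -0.04 without sham replicate 1, and was -0.07 without BPH replicate 3. Without sham replicate 2, 8 of 8 were lower and 2 passed, Fos and Jun, where 4.7% of all genes passed in that fit. Without sham replicate 1, 4 of 8 were lower and 0 passed, where 15.8% of all genes passed. Leaving out 1 of these 2 sham arrays thus moved the count and turned the sign of Junb, Egr2, Fosl2 or Nr4a1.

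In BPH+ghrelin against BPH, both castrated and given androgen, 0 of 8 passed, where 1.48% of 19749 genes did. The unadjusted count was 1, Fosl2, against 21.1% of all genes. The level was lower in BPH+ghrelin for 7 of 8 genes, all but Fos, and for 5 of 8 when each array was scaled to its 75th percentile, where Junb and Nr4a1 turned to 0.09 and 0.02. Over all genes 48.3% were lower. The arrays did not overlap for Fosl2, Jun and Egr2, 3 of 8 members against 39.2% of all genes, a share near the background. The median difference was -0.36 against 0.02 over all genes. It ran from -0.52 without BPH replicate 3 to -0.22 without BPH replicate 1, and was -0.06 with 75th percentile scaling and -0.20 with normexp background correction. Within slide 1, where BPH+ghrelin replicate 1 sat beside the 3 BPH arrays, the differences were -0.79 for Egr2, -0.51 for Fosl2, -0.37 for Jun and 0.03 for Fos, values with no test. When normalization and fit used only these 6 arrays, 2 members passed, Fosl2 (-0.58, adjusted p = 0.0433) and Egr2 (-0.84, adjusted p = 0.0497), and that fit passed 2110 genes in all in place of 293.

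In BPH+ghrelin against sham, 0 of 8 passed, where 6.29% of 19197 genes did. The unadjusted count was 4, Fos, Ier2, Jun and Egr2, against 23.7% of all genes. The level was lower in BPH+ghrelin for 8 of 8 genes, and for 7 of 8 with 75th percentile scaling, where Nr4a1 turned to 0.03. Over all genes 45.5% were lower. Fos and Egr2 were at least 2-fold lower, 2 of 8 against 4.2% of all genes. The arrays did not overlap for Fos, Ier2, Jun and Atf3, 4 of 8 against 30.4% of all genes. The median difference was -0.62 against 0.04 over all genes, and it ran from -0.86 without sham replicate 2 to -0.46 without sham replicate 1. Without sham replicate 2, 5 of 8 passed, namely Fos, Jun, Junb, Egr2 and Ier2, all lower, where 10% of all genes passed in that fit. Within slide 2, with 2 BPH+ghrelin and 2 sham arrays, the differences were -1.71 for Fos, -0.96 for Egr2, -0.82 for Jun, -0.67 for Ier2 and -0.60 for Junb, values with no test. This comparison and the first share their sham arrays, so that a high or low sham array enters both. Fewer responding cells and less RNA per cell cannot be told apart in whole glands.

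Array by array, most members moved together, also within a group. When each of the 8 genes was set to its own mean over the 9 arrays, all 8 lay above that mean on sham replicate 1, with a median deviation of 0.74, and 7 of 8 on sham replicate 3, with 0.34. On sham replicate 2 the median was -0.34, and only Atf3 lay above its mean. In BPH the medians were 0.31, 0.09 and -0.29 on replicates 1, 2 and 3. In BPH+ghrelin they were -0.26, -0.36 and -0.37, with only Nr4a1 on replicate 1 above its mean, and none of the 8 on replicates 2 and 3. Medians of sham and BPH overlapped, and sham replicate 2 and BPH replicate 3 were as low as the BPH+ghrelin arrays.

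**Figure D3:**
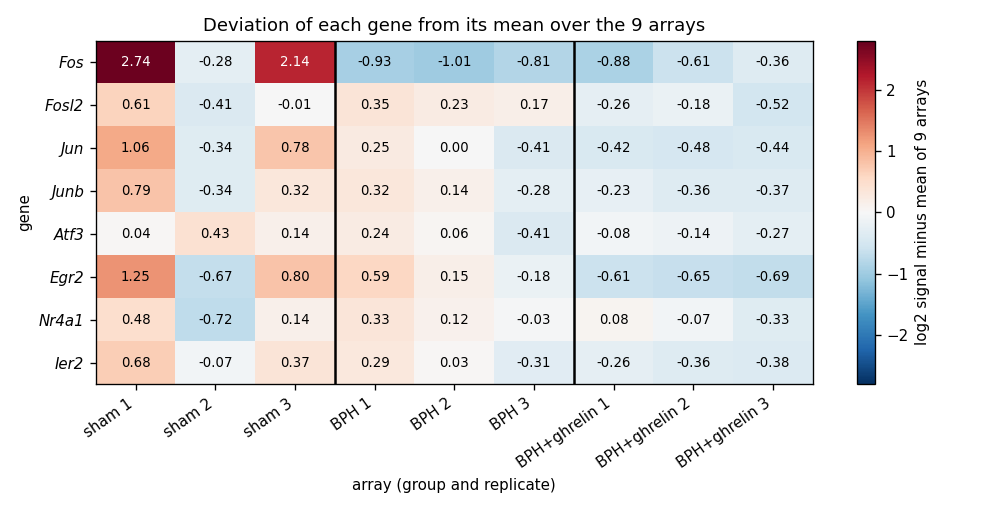
Log2 signal of each of the 8 tested immediate early genes (rows) on each array (columns), minus the mean of that gene over the 9 arrays (red above, blue below). All 8 genes lie above their mean on sham 1 and none of them on BPH+ghrelin 2 and 3, and the medians over genes run from 0.74 to -0.37.

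The order of the arrays was shared by most members. Sham replicate 2 was the lowest sham array for 7 of 8 members, where this was so for 45.5% of the 20046 genes tested in any comparison. BPH replicate 1 was the highest BPH array for 7 of 8 members (44.3% of all genes), and BPH replicate 3 the lowest for 7 of 8 (42.5% of all genes). Fos was the exception in BPH, where its 3 arrays read 7.31, 7.23 and 7.42, with replicate 3 the highest. BPH+ghrelin had the lowest mean of the 3 groups for 7 of 8 members (27.9% of all genes), and sham the highest for 6 of 8 (31.3% of all genes).

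Marker lists of other cell types and glands were set beside these orders. In sham replicates 1, 2 and 3 the summed log2 signal of 6 smooth muscle markers was 14.88, 14.06 and 14.53, and that of 6 fibroblast markers 14.55, 13.66 and 14.25, so that both were lowest on the array with low Fos, Jun and Nr4a1. The 4 measured of 5 listed adipocyte markers summed to 6.59, 12.18 and 10.67 on the same arrays, highest on replicate 2. They summed to 11.69, 11.22 and 10.27 in BPH and 5.75, 11.02 and 12.07 in BPH+ghrelin, with 1 to 3 of them well above background, so that 1 array of sham and 1 of BPH+ghrelin stood far below the rest. In BPH the smooth muscle sum ran 14.09, 14.63 and 15.04 and the fibroblast sum 14.24, 14.56 and 14.85. Both were highest on replicate 3, where 7 of the 8 members were lowest. Within the smooth muscle list Myh11 departed from the sum. It read 11.45, 11.47 and 11.40 in sham, highest on replicate 2, and 11.18, 11.42 and 11.40 in BPH. Within the fibroblast list, the collagens Col1a1, Col1a2 and Col3a1, and Pdgfra, had the order of the sum. Dcn (12.11, 11.93 and 11.60) and Lum (6.98, 6.73 and 6.34) fell instead, lowest on replicate 3 as most members were. In BPH+ghrelin the smooth muscle sum lay between 14.03 and 14.16, and the fibroblast sum ran 14.18, 14.45 and 14.65. Myh11, of smooth muscle, passed lower in BPH+ghrelin, by -0.96 against BPH and -1.07 against sham (limma adjusted p = 0.0157 and 0.00245). Lum did so by -1.65 and -1.42 (adjusted p = 0.0240 and 0.0145). No other gene of these lists passed in either comparison, and Col1a1 read higher, by 0.52 and 0.91. The 4 measured of 6 endothelial markers summed to 10.49, 10.14 and 10.35 in sham, 10.29, 9.97 and 9.65 in BPH and 9.78, 9.69 and 9.56 in BPH+ghrelin, with 3 or 4 of them well above background. Within each group this is the order of the median deviations of the immediate early genes. The endothelial sum followed its brightest genes, Kdr and Pecam1. Cdh5 departed from it, being highest on sham replicate 2 (5.20) and on BPH replicate 3 (5.03). Tek rose from 1.38 to 2.45 between BPH+ghrelin replicates 1 and 3, where it was not well above background. Of 8 markers of seminal vesicle and coagulating gland, neighbouring glands, the 7 measured summed to 17.27, 16.47 and 17.17 in sham, 14.80, 13.93 and 9.54 in BPH and 11.95, 11.25 and 9.17 in BPH+ghrelin, with 4 to 7 of them well above background. This list too was lowest on sham replicate 2 and, in BPH, highest on replicate 1 and lowest on replicate 3, as were most members. Its sum also lay lower on every array of castrated rats than in sham. Of the 7 tested, 5 were at least 2-fold lower than sham in BPH and 5 in BPH+ghrelin (4.63% and 4.2% of all genes). In limma 3 and 5 passed lower (2.18% and 3.3% of all genes). Svs5 and Svs6 read higher than sham in both groups, and Svs5 was highest on BPH replicate 3 (3.52).

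Further lists also separated groups. The 4 luminal markers named above summed to 16.88, 16.98 and 16.94 in sham, 16.10, 15.93 and 15.67 in BPH and 16.20, 16.02 and 15.90 in BPH+ghrelin, lower on every array of castrated rats than in sham. A sum follows its brightest genes, here Pbsn, a secreted protein of the luminal cell, which differed from sham by -2.65 in BPH and -1.89 in BPH+ghrelin (adjusted p = 0.00191 and 0.00459). Krt8, a luminal keratin, went the other way, by 0.96 and 0.75 (adjusted p = 0.00909 and 0.0170), and the differences were 0.38 and 0.27 for Hoxb13 and -0.21 and -0.21 for Krt18, with no call. The 5 measured of 6 lymphocyte markers, with 3 or 4 of them well above background, summed to 8.69, 8.92 and 8.71 in sham, 8.43, 8.28 and 8.14 in BPH and 8.09, 8.13 and 8.23 in BPH+ghrelin, and were again higher on every sham array. The 4 basal epithelium markers summed to 12.07, 12.58 and 12.18 in sham, 12.33, 12.58 and 12.77 in BPH and 12.81, 12.83 and 12.90 in BPH+ghrelin, which lay above all other arrays. Krt15, the brightest, carried this order, at 1.21 above sham in BPH+ghrelin (adjusted p = 0.0170), while the difference from sham was 0.48 for Krt14, -0.34 for Krt5 and -0.57 for Tp63, and Krt5 read lower in BPH+ghrelin than in BPH on every array, by -0.65 (adjusted p = 0.197). The 5 macrophage markers summed to 9.29, 9.60 and 9.43 in sham, 9.71, 9.57 and 9.34 in BPH and 9.10, 9.10 and 9.24 in BPH+ghrelin, which lay below all other arrays. Cd68 was the brightest of them, and single genes departed from the sum, with Csf1r at 0.32 in BPH+ghrelin against BPH (adjusted p = 0.300) and Adgre1 at 0.44 in BPH+ghrelin against sham (adjusted p = 0.343), while Adgre1 passed higher in BPH than in sham (1.18, adjusted p = 0.0434) and Mrc1 lower in BPH+ghrelin than in BPH (-1.30, adjusted p = 0.0340). The summed signal of striated muscle markers overlapped between the groups. It was 8.42 to 9.11 in sham, 8.18 to 9.14 in BPH and 8.41 to 8.76 in BPH+ghrelin. Of this list Ckm alone passed, and its arrays did not overlap with sham. It differed from sham by -1.90 in BPH and -1.96 in BPH+ghrelin (limma adjusted p = 0.00451 and 0.00261). Among the striated muscle markers tested, 2 of 6 in BPH and 2 of 5 in BPH+ghrelin read higher than sham. The part of these markers in the differences of the immediate early genes was not tested.

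The spread within groups also differed between members. Fos had an SD of 1.60 over the sham arrays, at the 98.1th percentile of 20046 genes, and Egr2 one of 1.00, at the 92.6th percentile. Both rested on sham replicate 2, and over the other 2 sham arrays they were 0.42 and 0.32, at the 87.1th and 79.4th percentiles. In BPH+ghrelin the SD was 0.03 for Jun and 0.04 for Egr2, at the 4.87th and 8.38th percentiles. The SD of all 8 members was lower in BPH+ghrelin than in sham, which held for 72.2% of all genes. Without sham replicate 2 it was lower for 7 of 8, against 49.3% of all genes, the exception being Atf3 with 0.07 in sham and 0.10 in BPH+ghrelin. The median SD over members was 0.59 in sham, 0.31 in BPH and 0.09 in BPH+ghrelin, and over all genes 0.31, 0.17 and 0.17. Over sham replicates 1 and 3 alone it was 0.28 for the members and 0.16 for all genes. Atf3 had the smallest SD of the members in sham, 0.20.

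**Figure D4:**
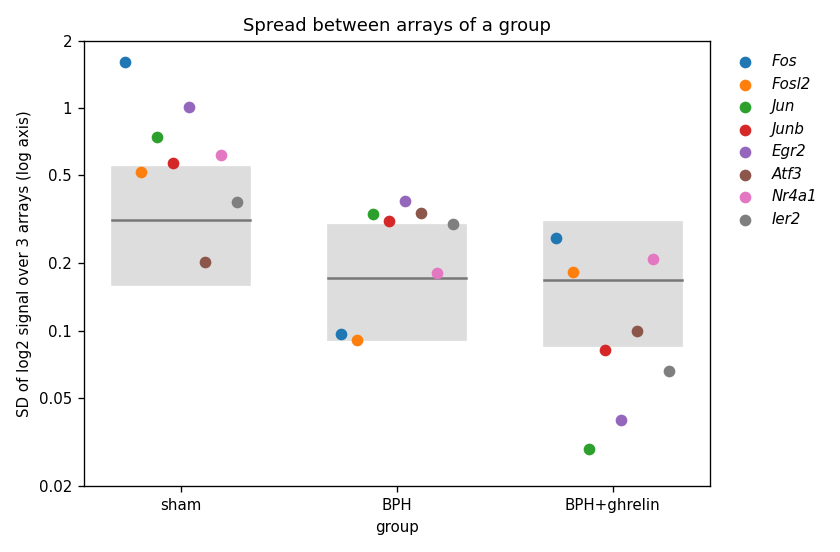
SD of log2 signal over the 3 arrays of each group (vertical log axis) for the 8 tested immediate early genes (points), with grey boxes from the lower to the upper quartile of 20046 genes and their median as a line. Fos stands at 1.60 in sham, and Jun and Egr2 at 0.03 and 0.04 in BPH+ghrelin.

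Likeness between members was measured over the 9 arrays, as a description with no test, since the points share slides and normalization. For the 6 members well above background on all arrays, Pearson's r of each with the mean of the other 5 was 0.98 for Jun, 0.93 for Ier2, 0.90 for Junb, 0.73 for Fos, 0.53 for Nr4a1 and 0.28 for Atf3. After group means were subtracted, r was 0.99 for Jun, 0.96 for Junb, 0.94 for Nr4a1, 0.92 for Ier2, 0.74 for Fos and -0.27 for Atf3. Over the 8 arrays without sham replicate 2, r after group means was 0.96 for Jun, 0.98 for Junb, 0.98 for Ier2, 0.73 for Nr4a1, 0.58 for Atf3 and -0.02 for Fos. The likeness of Fos to the others within groups and the departure of Atf3 from them thus both rested on that 1 array. Among 16125 genes well above background on all 9 arrays, 9683 of them with a symbol, the named non-members most like the mean of the 6 members were F2rl1 (r = 0.986), which encodes the protease-activated receptor PAR2, Cpsf6 (0.977), an mRNA 3′ end processing factor, Abhd16a (0.976), a lipid hydrolase, Gata2 (0.974), a zinc finger transcription factor, and Mfsd9 (0.973). Their r was between 0.949 and 0.987 after group means were subtracted. Over the 8 arrays without sham replicate 2 it was between 0.973 and 0.99, and after group means between 0.688 (Gata2) and 0.975.

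The wider early response was read from a list of 34 genes, 31 of them tested. Ccn1, a secreted matrix protein of the early growth response, read 9.87, 9.70 and 9.75 in sham, 8.24, 7.89 and 7.50 in BPH and 7.56, 7.33 and 7.16 in BPH+ghrelin. It was lower on every array of both BPH groups than in sham, by -1.90 in BPH (SE 0.20, adjusted p = 0.00371) and -2.42 in BPH+ghrelin (SE 0.20, adjusted p = 0.000737). Both calls held without any 1 array, sham replicate 2 included, and with slide as a block the first difference was -2.23 with adjusted p = 0.308, in a fit that passed 2 genes in all. The 3 sham arrays of Ccn1 lay between 9.70 and 9.87, where those of Fos ran from 7.95 to 10.97.

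In BPH against sham, 2 genes of the list passed, both lower, Ccn1 and Ier3, where 2.18% of all genes passed lower, and none passed higher. The list as a whole did not fall there, with 16 of 31 higher and 15 lower. At an unadjusted limma p under 0.05, 5 were higher and 2 lower, against 14.4% and 12% of all genes. Ier3, an inhibitor of cell death, differed by -0.92 (adjusted p = 0.0348) in BPH and -0.84 (adjusted p = 0.0361) in BPH+ghrelin, and each call was lost when any 1 of 4 arrays was left out, among them sham replicate 3. Between BPH+ghrelin and BPH 1 gene passed, Plk2, where 0.987% of all genes passed lower. Plk2, a serum-induced kinase, read 5.89, 4.72 and 5.57 in sham, 6.57, 6.07 and 5.19 in BPH and 3.78, 3.69 and 3.73 in BPH+ghrelin. Its difference was -2.21 (SE 0.39, adjusted p = 0.0393), with the lowest level in BPH+ghrelin and a narrow spread there as for Jun and Egr2, and the call held in 1 of 6 fits that left out an array and in 7 of 16 alternative fits in all. With normexp background correction the difference was -0.61 (adjusted p = 0.0652). In BPH+ghrelin against sham, 3 passed lower (3.3% of all genes), Ccn1, Plk2 (-1.66, adjusted p = 0.0438) and Ier3, and 1 passed higher (2.99%), Gadd45a, a DNA damage response gene (1.04, adjusted p = 0.0402). The calls of Plk2 and Gadd45a against sham held in 1 and 2 of 6 such fits, and with normexp correction Plk2 differed from sham by -0.31 (adjusted p = 0.224). The median difference of the list was 0.03, -0.27 and -0.13 in the 3 comparisons, against 0.04, 0.02 and 0.04 over all genes.

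Genes that shape the response were read as well. Of 15 tested feedback inhibitors, such as the DUSP phosphatases, 0 passed in limma in any comparison, where 4.34%, 1.48% and 6.29% of all genes did. At an unadjusted p under 0.05 there were 2, 2 and 1, against 26.5%, 21.1% and 23.7% of all genes, with medians of -0.18, -0.07 and -0.19. Of the upstream kinases, Mapk9 (JNK2) was higher in BPH than in sham by 0.60 (adjusted p = 0.0364), where 2.16% of all genes passed higher, and the call held in 3 of 6 fits without 1 array.

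Heat shock and hypoxia genes were read as further marks of stress. Of 11 heat shock genes tested, 3 passed higher in BPH than in sham, where 2.16% of all genes did, namely Hsp90aa1 (0.86), Dnajb4 (0.80) and Hmox1 (0.54), with adjusted p of 0.0454, 0.0320 and 0.0401. In all, 10 of 11 were higher, where 53.7% of all genes were, and the median was 0.58. The calls of these 3 held in 2, 3 and 2 of 6 fits without 1 array. For BPH+ghrelin, 0 of the 11 passed in limma against sham or BPH, with 0 and 4 at an unadjusted p under 0.05, where 23.7% and 21.1% of all genes had one. Of 14 hypoxia genes, Ldha, the lactate-producing enzyme, passed higher against sham in BPH (0.56) and BPH+ghrelin (0.62), the only 1 of 14 to do so, where 2.16% and 2.99% of all genes did. Against BPH, BPH+ghrelin had Ankrd37 higher (1.28) and Egln3, an oxygen sensor, lower (-0.79), each 1 of 14 against 0.496% and 0.987% of all genes, and Egln3 was lower against sham also (-0.70), 1 of 14 against 3.3%. Each of these 5 calls was lost in at least 4 of 6 fits without 1 array. With normexp correction Hmox1 read 0.13 and Egln3 -0.33 and -0.26, and with 75th percentile scaling Ldha read 0.30 in BPH against sham, none of them a call. Among the early-response, kinase, heat shock and hypoxia genes named, leaving out sham replicate 3 lost every call against sham, Ccn1 excepted. Fits without 1 array are not given for the cell type markers. The medians of the hypoxia list were 0.08, 0.02 and 0.21.

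**Figure D5:**
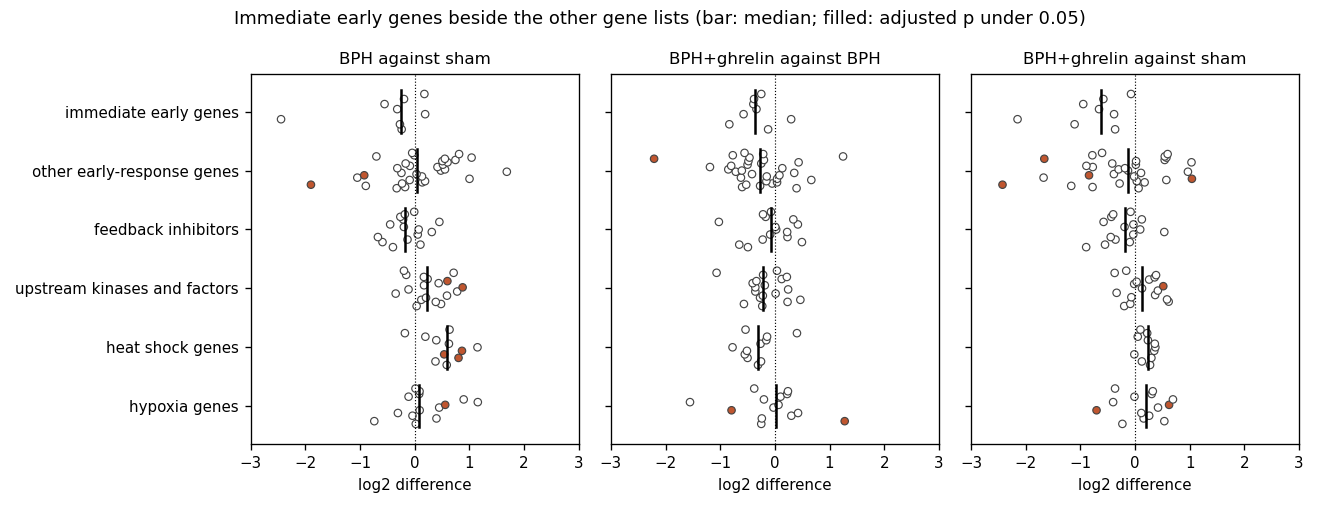
Log2 difference (horizontal axis) of each tested gene (points) of the immediate early genes and of 5 other lists in the 3 comparisons, with the median of a list as a bar and genes at an adjusted p under 0.05 filled. The immediate early genes have medians of -0.26, -0.36 and -0.62 with none filled, while heat shock genes have a median of 0.58 in BPH against sham.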

How the data were processed

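Total RNA of 9 rat prostates was labelled with Cy3 and hybridised to one-colour Agilent arrays (header build rn4). The signal intensities deposited by the authors come from Agilent Feature Extraction 11.0.1.1, with background subtracted, and were not normalized between arrays. Their deposited matrix of log2 values, quantile normalized in GeneSpring GX 12.1, served as an alternative. Groups came from the labels. Control and outlier spots were dropped, spots averaged per probe on the log2 scale, and 9 arrays quantile normalized. Probes were named by accession through RefSeq (GRCr8), 17998 of 30356 with a symbol. Probes had to exceed background clearly on 3 or more of the 6 arrays in a comparison, and the brightest such probe stood for its gene, an accession without a symbol counting as its own gene. limma 3.58.1 in R 4.3.3 fitted 3 groups (two-sided), with Benjamini-Hochberg adjustment over all genes, after tests on simulated data. A call is an adjusted p under 0.05, an interval is 95%. The authors ran no statistical test on the arrays. Array number limits precision, and 3 against 3 arrays allow no exact permutation p below 0.1. Which rats gave the arrays is not stated, so p-values measure spread between these samples. Members, lists and tests were chosen with earlier results of these data known. All 10 members are named, and of other lists up to 5 called, non-overlapping genes per comparison and direction, plus the 5 genes most like the members. Alternatives covered scaling, background, dim-probe filter, probe choice, fit, blocks and arrays left out. A few genes of these lists are not reported here.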

Additional observations from a re-analysis of the deposited data

How the results depend on the processing

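For the 8 immediate early genes in 3 comparisons, 358 of 382 alternative values kept their direction and their side of the threshold, 10 newly passed it and 14 turned sign. The count of immediate early genes passing ranged over fits without 1 array from 0 to 2 in BPH against sham, stayed at 0 in BPH+ghrelin against BPH and ranged from 0 to 5 in BPH+ghrelin against sham. It was 2 in BPH+ghrelin against BPH with the 6 arrays compared only and 1 in BPH+ghrelin against sham with the deposited matrix (Egr2, -1.41, adjusted p = 0.0220). Counted by unadjusted p it was 1, 1 and 4, by 2-fold 1 and 2 in the comparisons with sham, and by no overlap 1, 3 and 4. Counts of the 31 other early-response genes moved most: over fits without 1 array they were 1 to 5, 0 to 3 and 1 to 7. They were 1, 0 and 1 with no filter on dim probes or with replicate number as a block, and 0, 0 and 1 with slide as a block. They were 4 with a filter on all 6 arrays in BPH against sham, and 1 and 2 with the 6 arrays compared only in the first and second comparison. By unadjusted p they were 7, 7 and 9, by 2-fold 5 and 3 in the first and second, and by no overlap 8, 10 and 10. Small values turned sign. In BPH against sham, Fosl2 turned to -0.30 with the filter on all 6 arrays and -0.057 with the mean of its probes, and Nr4a1 to -0.022 with slide as a block. With 75th percentile scaling, Junb turned to 0.087 and Nr4a1 to 0.023 in BPH+ghrelin against BPH, and Nr4a1 to 0.027 in BPH+ghrelin against sham. Over fits without 1 array, BPH against sham ranged from -0.046 (without sham replicate 2) to 0.465 (without sham replicate 1) for Fosl2, and between the same fits from -0.487 to 0.071 for Junb, from -0.843 to 0.125 for Egr2 and from -0.164 to 0.433 for Nr4a1. Over such fits Atf3 ranged from -0.309 to 0.015 in BPH+ghrelin against BPH (without BPH replicates 3 and 1), and Nr4a1 from -0.410 to 0.184 in BPH+ghrelin against sham (without sham replicates 2 and 1). The cause was not tested. The 75th percentile scaling moved the median of all genes in BPH against sham from 0.04 to -0.09. Over all genes, the replicate block passed 242, 20 and 462 genes in place of 849, 293 and 1207, and slide as a block 2, 2 and 85. Same-numbered arrays correlated in their deviations at -0.18 to 0.37. Such values from 3 arrays per group cannot settle whether the numbers pair the arrays. With the replicate block 0 immediate early genes passed in each comparison. Fos under the block had adjusted p of 0.103 and 0.120 against sham. The differences within slides, and SDs and r without sham replicate 2, were chosen after seeing the data. Within slides all 16 differences of the 8 genes kept their direction. Signal over background limited Egr1, Egr2 and Fosl2.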
